A study of Homo sapiens with 2 samples.

Results

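The genes described here are the death receptor FAS, its adaptor FADD, the initiator caspases CASP8, CASP10 and CASP9, the caspase-8 regulator CFLAR and the inhibitors of apoptosis XIAP and BIRC2, 8 of the 8277 genes measured in a Hodgkin lymphoma cell line. Their probe sets are all those whose platform annotation gives 1 of the 8 symbols alone, 27 of 22215 that are no controls. The genes were selected on the treated and untreated signals of these same arrays together with their place in the pathway, so the differences below describe the genes and do not test them.

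The groups were L-540 cells exposed to the histone deacetylase inhibitor vorinostat and L-540 cells that were left untreated. L-540 is an established line from Hodgkin lymphoma, and the labels name it in both groups, grown under standard conditions. Each group was 1 Affymetrix HG_U133A array, so no difference has a replicate check, and the culture, the labelling and the array cannot be told apart from the drug. The labels used here give no dose and no time. Each value is a MAS5 signal, a linear intensity that sums up the probes of 1 probe set, and 58.8% of probe sets on the vorinostat array and 61.2% on the untreated array lay above a floor of 68.9 signal units, the 40th percentile of both arrays pooled. A signal under the floor was raised to it, and such a difference is written as "at least". Of 10 markers of Hodgkin and Reed-Sternberg cells, 9 were above the floor on each array, with summed signals of 35569 with vorinostat and 44489 untreated, and CCL17 was under it on both. Of 5 B cell, 5 monocyte and granulocyte, 4 epithelial and 4 fibroblast and endothelial markers, 2, 1, 2 and 1 were above the floor with vorinostat and 2, 2, 1 and 2 untreated. Of 7 T cell markers 3 with vorinostat and 4 untreated were above it, with summed signals of 1433 and 5190, of which CD247 alone made 942 and 4463, and CD3D, CD3G and CD7 were under it on both. Fewer cells of a type and less RNA per cell cannot be told apart in such bulk RNA, and the part of these markers in the results was not tested.

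FAS, also called CD95, is a cell surface receptor that forms a signalling complex when FAS ligand binds it. FADD joins the receptor to procaspase-8 and procaspase-10, which activate each other there and then cleave the executioner caspases. CFLAR encodes FLIP, a relative of caspase-8 that lacks protease activity and enters the same complex, and its forms are known to set how much caspase-8 is activated. CASP9 starts the mitochondrial arm of apoptosis on the APAF1 scaffold, XIAP binds and inhibits caspases, and BIRC2 is a ubiquitin ligase that acts at TNF receptor complexes. Hodgkin lymphoma cells are known for surface FAS and for FLIP, and are often described as resistant to FAS-induced death.

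The promoters of 3 genes that were at least 2-fold lower on the vorinostat array, FAS, CFLAR and XIAP, and of BIRC2, which was higher, are shown so that their motifs can be compared. Each is 300 bases, from 250 before to 50 after a transcription start, from RefSeq on build GRCh38.p14, and is the most upstream window listed for its gene. Sequences run 5′ to 3′. Capitals mark matches on either strand to a GC box (GGGCGG), an AP-1 motif (TGANTCA) or a cyclic AMP response element (TGACGTCA).
FAS, chr10:88990548-88990847, plus strand: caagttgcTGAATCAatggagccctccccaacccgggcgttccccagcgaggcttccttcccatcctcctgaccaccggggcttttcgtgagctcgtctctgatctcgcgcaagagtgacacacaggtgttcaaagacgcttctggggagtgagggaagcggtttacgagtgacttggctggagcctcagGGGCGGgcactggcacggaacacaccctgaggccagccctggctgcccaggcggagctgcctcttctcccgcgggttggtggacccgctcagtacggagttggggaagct
CFLAR, chr2:201118466-201118765, plus strand: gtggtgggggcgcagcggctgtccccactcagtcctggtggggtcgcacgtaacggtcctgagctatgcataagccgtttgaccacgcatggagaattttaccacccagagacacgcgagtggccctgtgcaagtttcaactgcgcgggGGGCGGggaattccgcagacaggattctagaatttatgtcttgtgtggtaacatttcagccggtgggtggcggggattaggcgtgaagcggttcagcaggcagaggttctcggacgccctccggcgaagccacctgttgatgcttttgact
XIAP, chrX:123859458-123859757, plus strand: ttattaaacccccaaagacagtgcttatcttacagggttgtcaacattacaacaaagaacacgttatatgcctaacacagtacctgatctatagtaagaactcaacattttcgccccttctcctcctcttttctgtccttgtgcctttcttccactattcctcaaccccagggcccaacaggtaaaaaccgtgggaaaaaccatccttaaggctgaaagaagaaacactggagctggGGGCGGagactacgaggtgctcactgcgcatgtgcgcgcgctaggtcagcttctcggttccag
BIRC2, chr11:102346964-102347263, plus strand: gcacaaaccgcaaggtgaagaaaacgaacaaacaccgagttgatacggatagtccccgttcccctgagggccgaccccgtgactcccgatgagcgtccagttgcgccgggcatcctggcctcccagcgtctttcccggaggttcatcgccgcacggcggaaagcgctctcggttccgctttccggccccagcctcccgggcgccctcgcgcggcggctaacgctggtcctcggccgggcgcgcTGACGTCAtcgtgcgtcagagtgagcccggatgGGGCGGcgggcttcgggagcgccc

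The table held windows for 7 of the 8 genes, and CASP10 was not among them. The GC box was found in the most upstream window of all 7, and in 44.95% of all 35116 windows of the same length. The AP-1 motif was found in those of FAS and FADD, and in 7.71% of all windows. The cyclic AMP response element was found in that of BIRC2 alone among the 7, and in 1.85% of all windows. The GC box therefore occurred both in genes that were lower and in those that were higher on the vorinostat array. Of all 18 windows listed for the 7 genes, which overlap in part, 13 held the GC box, 5 the AP-1 motif and 2 the cyclic AMP response element. Further windows of CFLAR and CASP8 were among those with the AP-1 motif. The windows of FAS and BIRC2 held 63.0% and 68.7% G and C, and that of XIAP held 48.0%, against a median of 58.7% over all windows. These matches describe the letters and show no binding, and no match says only that the letters are not in this window.

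Relative to the untreated array, the vorinostat array had lower signals for FAS (5.02-fold), CFLAR (2.18-fold) and XIAP (2.55-fold), each taken from the gene's brightest probe set. FADD was 1.93-fold lower and stayed short of 2-fold. CASP8 was 1.23-fold and CASP10 1.03-fold lower, and CASP9 and BIRC2 were 1.55-fold higher. In count, 3 of the 8 genes were at least 2-fold lower and 0 at least 2-fold higher, while among all measured genes 5.12% were at least 2-fold lower and 3.77% at least 2-fold higher. Of all genes past 2-fold 42.4% were higher, and 58.8% were after scaling the arrays to equal medians, where 2 of the 8 genes, FAS and XIAP, were at least 2-fold lower. Without probe sets that can share sequence, 1 of the 5 genes still measured, CFLAR, was at least 2-fold lower, and FAS was not measured. XIAP entered there at a bound, at least 1.55-fold lower. The genes were selected on this contrast, so nothing is read from these counts. The median log2 ratio was -0.62 over the 8 genes and -0.04 over all measured genes. Of the 26 measured probe sets of the 8 genes, 22 were lower on the vorinostat array, 15 of them at least 2-fold. Of the 22, 11 belong to CFLAR and 4 to FAS. Of all measured probe sets 53.9% were lower by some amount and 5.47% at least 2-fold.

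Some measure of error comes from genes with several probe sets. Whether these read the same transcripts, or overlap in sequence, was not analysed here. Over 2428 genes with at least 2 probe sets above the floor on both arrays, the log2 ratios of the 2 brightest differed by a median of 0.25, and an SD of 0.29 for 1 probe set follows from these pairs. That spread covers the probes only. It holds nothing of the variation between cultures or arrays, which 1 array per group cannot show.

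**Figure D1:**
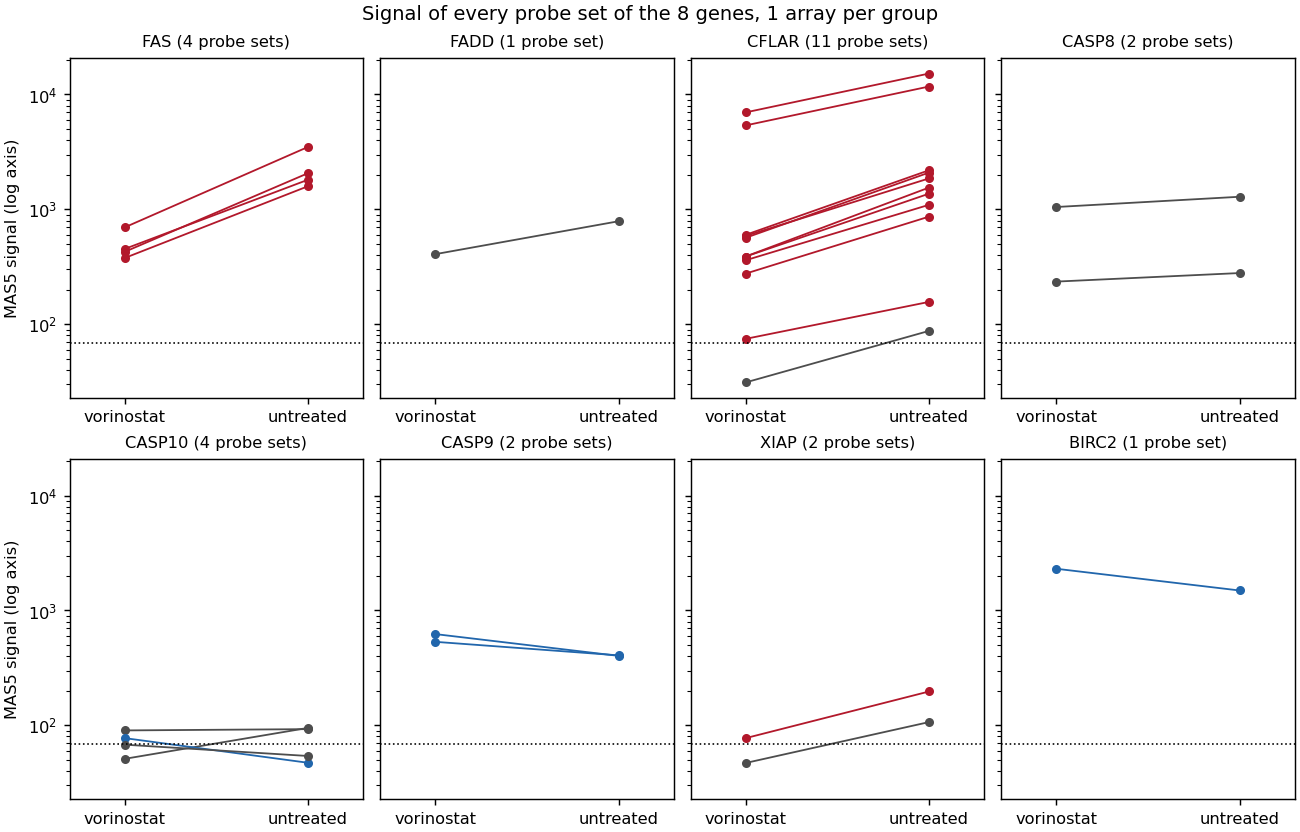
MAS5 signal (log axis) of every probe set of the 8 genes on the vorinostat array (left) and the untreated array (right), each line 1 probe set. Red lines are at least 2-fold lower with vorinostat, blue lines higher, grey lines neither, and the dotted line is the floor of 68.9; all 4 lines of FAS and 10 of 11 of CFLAR are red, and CASP10 lies along the floor.

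The receptor FAS had the lowest ratio of the 8 genes. Its brightest probe set, 204780_s_at, had a signal of 697 with vorinostat and 3495 untreated (5.02-fold lower). Probe set 215719_x_at had 427 with vorinostat and 2065 untreated (4.84-fold lower). Probe set 204781_s_at had 377 with vorinostat and 1590 untreated (4.22-fold lower). Each of the 4 probe sets was lower on the vorinostat array. The remaining probe set, 216252_x_at, had 452 with vorinostat and 1812 untreated (4.01-fold lower). The 4 log2 ratios averaged -2.17 with an SD of 0.16 over probe sets, less than the 0.29 typical of this array pair. Overlap among the 4 was not analysed, so they are not shown to be separate readings. All 4 carry a suffix for sequence that can be shared with other transcripts, and FAS has no probe set without it here.

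Only 7 measured genes had a lower log2 ratio than FAS, genes at the floor on 1 array entering at their bound. Among the 1119 genes whose mean log2 signal lay within 0.5 of that of FAS, no other was as low as FAS on its brightest probe set. Counted the same way, with the gene itself included, 39 of 1366 genes were as low as XIAP and 121 of 1612 as low as FADD. For CASP8 it was 342 of 1331 and for CASP10 1041 of 1796. The genes were selected on this contrast, so these ranks describe them only. Of 304 genes with at least 4 measured probe sets, 105 (34.5%) had every one lower with vorinostat by any amount. In 7 of the 304 (2.30%) every one was at least 2-fold lower, and FAS was 1 of these 7. Outside the pathway, the genes with the nearest log2 ratio to FAS (-2.33) were DOK2 (-2.31), IRF5 (-2.31) and PRDM10 (-2.30). That likeness is the difference in a single ratio between 2 arrays. IRF5, with 825 with vorinostat and 4082 untreated, also lay within 0.5 of FAS in mean log2 signal. Its log2 ratio differed from that of FAS by 0.02, less than the SD of 0.29 for 1 probe set. The median over the 4 probe sets of FAS was -2.18.

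The ligand that FAS binds, FASLG, was under the floor on both arrays, with at most 57.9 with vorinostat and 53.0 untreated on its probe sets. Of the 5 other death receptors listed, only TNFRSF10B and TNFRSF25 were measured, and neither was 2-fold lower. TNFRSF10B, a receptor for the ligand TRAIL, had 1515 with vorinostat and 1241 untreated on the brightest of 3 probe sets, which had log2 ratios between -0.66 and 0.29 with a median of -0.35. TNFRSF25 had 266 with vorinostat and 240 untreated. TNFRSF1A and TNFRSF21 were under the floor on both arrays. The TRAIL gene itself, TNFSF10, had 1852 with vorinostat and 1612 untreated, and each of its 3 probe sets was higher with vorinostat, with log2 ratios between 0.20 and 0.68.

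The adaptor FADD was read by 1 probe set, which had 407 with vorinostat and 788 untreated. Its log2 ratio was -0.95, just outside the 2-fold rule, and 495 measured genes, FADD included, were as low or lower. DAXX, a nuclear chaperone of histone H3.3 first described as a FAS-binding protein, had 229 with vorinostat and 481 untreated (2.10-fold lower), and its other probe set was 2-fold lower as well. CRADD, an adaptor of caspase-2, had a log2 ratio of -0.74, and TRADD, the adaptor of TNF receptor 1, had -0.27. FAF1, a FAS-associated factor, had 0.29. In count, 4 of the 5 measured adaptor genes were lower by some amount, as were 53.0% of all measured genes, and 1 was lower by at least 2-fold, against 5.12% of all.

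The regulator CFLAR had the most probe sets of the 8 genes, 11, and each was lower on the vorinostat array. The 2 brightest gave nearly the same difference: 209939_x_at had 6986 with vorinostat and 15224 untreated (2.18-fold lower), and 210563_x_at had 5382 with vorinostat and 11734 untreated (2.18-fold lower). A group of 7 probe sets with untreated signals between 800 and 2300 had larger differences, from 3.04-fold to 3.98-fold lower. Within it, 211862_x_at had 601 with vorinostat and 2191 untreated, and 211316_x_at had 566 with vorinostat and 2092 untreated. Probe set 208485_x_at had 588 with vorinostat and 1861 untreated, and 209508_x_at, with the largest difference of the 11, had 389 with vorinostat and 1549 untreated.

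The rest of that group looked alike. Probe set 210564_x_at had 389 with vorinostat and 1371 untreated, 211317_s_at had 361 with vorinostat and 1096 untreated, and 214486_x_at had 276 with vorinostat and 865 untreated. The remaining pair were dim and are the only ones of CFLAR without a shared-sequence suffix. Probe set 217654_at had 74.6 with vorinostat and 157 untreated (2.10-fold lower), and 214618_at had 31.2 with vorinostat, under the floor, and 87.6 untreated (at least 1.27-fold lower).

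The ratio of CFLAR therefore depended on the probe set more than that of FAS did. The 10 probe sets that exceeded the floor on both arrays averaged a log2 ratio of -1.58 with an SD of 0.35, against -2.17 and 0.16 for the 4 of FAS. The median of all 11 was -1.65, lower than the -1.12 of the brightest one. For scale, the absolute difference between the 2 brightest probe sets of a gene had a 90th percentile of 0.67 on these arrays. Which CFLAR transcripts each probe set reads was not analysed here, so the 2 levels of difference cannot be assigned to forms of FLIP. CFLAR was 1 of 124 measured genes of like signal level (within 0.5 in mean log2), whose log2 ratios had an SD of 0.33. No other was as low as CFLAR on its brightest probe set. CFLAR was selected on this contrast, so that rank and its distance from the other genes describe it only. After scaling the arrays to equal medians, the brightest probe set of CFLAR had a log2 ratio of -0.99, short of 2-fold. Relative to the median of all genes it was then at -1.08.

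**Figure D2:**
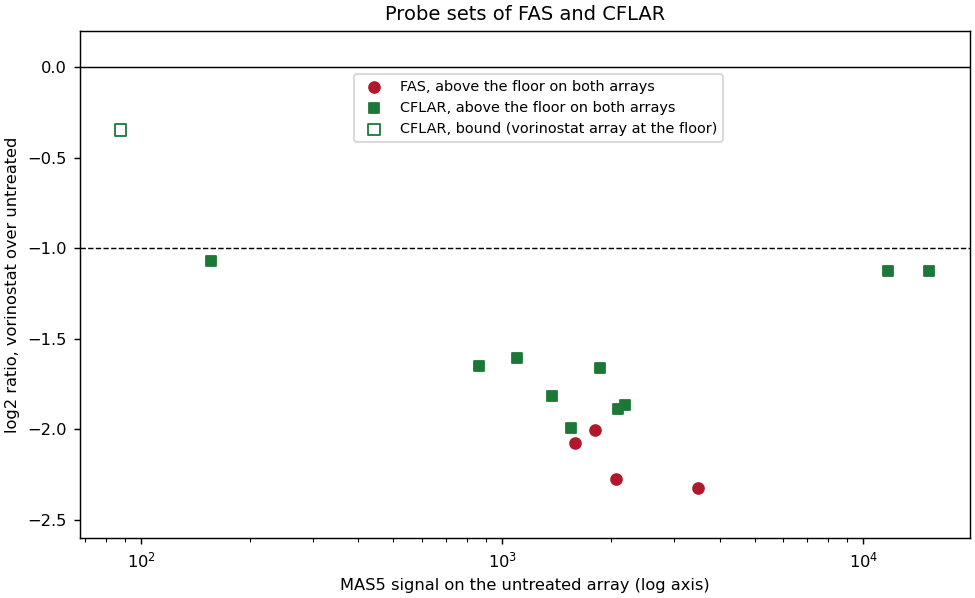
Log2 ratio (vorinostat over untreated) of each measured probe set of FAS (circles) and CFLAR (squares) against its signal on the untreated array (log axis); the dashed line marks 2-fold lower and the open square is a bound. The FAS probe sets lie between 4.01-fold and 5.02-fold lower, and those of CFLAR form a lower group of 7, a pair at -1.12 on the brightest signals and a dim pair.

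Of the initiator caspases that FADD recruits, CASP8 differed little between the arrays, and CASP10 lay too close to the floor to tell. CASP8 had 1048 with vorinostat and 1288 untreated on its brightest probe set and 235 with vorinostat and 279 untreated on the other. Its log2 ratios of -0.30 and -0.25 are about as large as the SD of 0.29 for 1 probe set. In all, 2519 measured genes, CASP8 included, were as low or lower. CASP10 had 90.3 with vorinostat and 92.7 untreated on its brightest probe set (log2 ratio -0.04). Its signals lay close to the floor on every probe set: 211888_x_at had 51.1 with vorinostat and 95.0 untreated, 210955_at had 77.4 with vorinostat and 47.2 untreated, and 210708_x_at was under the floor on both arrays with 67.9 and 54.1. With directions that differ between probe sets, no difference of CASP10 was measurable at these signals.

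CFLAR, CASP10 and CASP8 are neighbours in that order on chromosome 2 in the RefSeq table. Their log2 ratios were -1.12, -0.04 and -0.30 on the brightest probe sets. CASP8 differed less than CFLAR did, while CASP10 lay so close to the floor on the untreated array that a difference as large as that of CFLAR could not have been measured.

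CASP9, the initiator of the mitochondrial arm, had the higher signal on the vorinostat array on both of its probe sets. The brighter, 203984_s_at, had 623 with vorinostat and 403 untreated (1.55-fold higher), and 210775_x_at had 533 with vorinostat and 407 untreated (1.31-fold higher). Among measured genes, 934 were as high or higher, CASP9 included. Its scaffold APAF1 had a log2 ratio of 0.34 and cytochrome c, encoded by CYCS, had 0.37. BID, which caspase-8 cleaves to link FAS to mitochondria, had 159 with vorinostat and 303 untreated (1.91-fold lower). CASP2, another initiator, was 1.42-fold lower.

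The inhibitors XIAP and BIRC2 went opposite ways. XIAP had 77.4 with vorinostat and 197 untreated on 206536_s_at (2.55-fold lower). Its other probe set, 206537_at, had 47.0 with vorinostat, under the floor, and 107 untreated (at least 1.55-fold lower). On the vorinostat array XIAP was thus a little above the floor on the one and under it on the other, and the median over both, with the bound, was -0.99, just short of 2-fold. BIRC2, read by 1 probe set, had 2307 with vorinostat and 1492 untreated (1.55-fold higher), a log2 ratio of 0.63 that 940 measured genes, BIRC2 included, reached or passed. BIRC5, or survivin, had -0.34 and NAIP 0.08. Of the proteins that bind and block such inhibitors, DIABLO had 2186 with vorinostat and 1765 untreated (1.24-fold higher) and HTRA2 had a log2 ratio of -0.10.

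**Figure D3:**
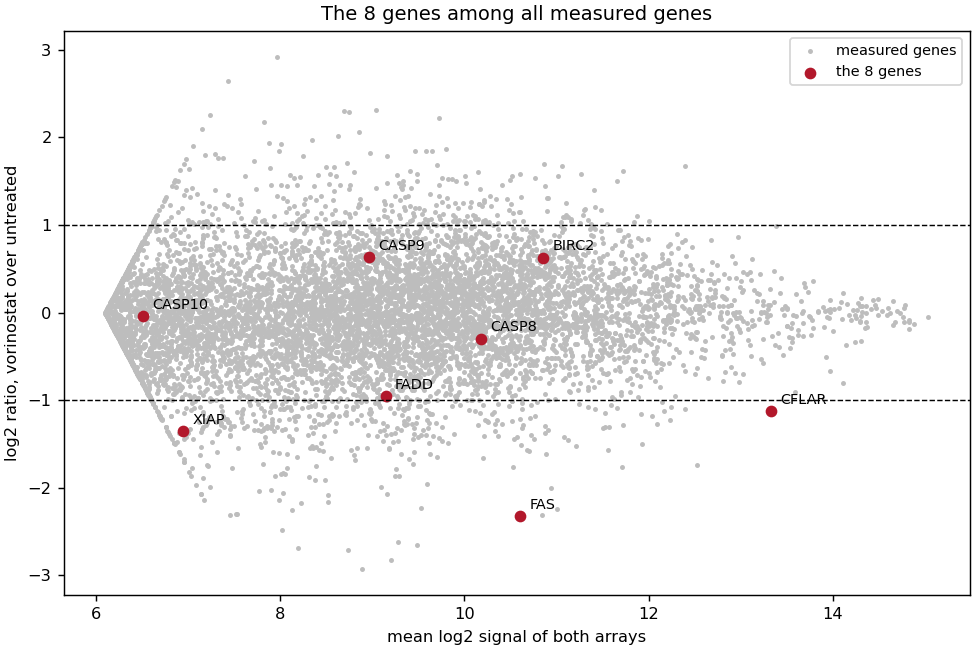
Log2 ratio (vorinostat over untreated) against the mean log2 signal of both arrays, 1 point per measured gene on its brightest probe set, with the 8 genes in red; dashed lines mark 2-fold. FAS (-2.33) and CFLAR (-1.12) lie below all other genes of like signal level, though IRF5 (-2.31) lies close to FAS. XIAP lies near the floor, and the other 5 lie between the dashed lines. The 8 genes were selected on this contrast.

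The wider pathway was described by a list of 53 genes ordered by role, the 8 included. Of these 34 were measured, 9 were under the floor on both arrays and 10 were not analysed here. In all, 6 of 34 were at least 2-fold lower with vorinostat and 1 at least 2-fold higher, against the 5.12% and 3.77% of all measured genes. Without the 8 selected genes it was 3 of 26 lower and 1 higher, with a median log2 ratio of 0.02, against -0.04 over all measured genes. Without probe sets that can share sequence, 18 pathway genes were measured, with 1 lower and 1 higher. After scaling to equal medians 4 of 34 were lower and 1 higher.

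The 3 lower ones were DAXX, FAIM and DFFB. FAIM, an inhibitor of FAS-induced death, had 44.8 with vorinostat, under the floor, and 208 untreated (at least 3.01-fold lower). DFFB, the nuclease that cuts DNA between nucleosomes in apoptosis, had 108 with vorinostat and 285 untreated (2.65-fold lower). The higher one was DFFA, the inhibitor and chaperone of that nuclease, and it had 1000 with vorinostat and 480 untreated (2.08-fold higher). Enzyme and inhibitor thus differed in opposite directions, each on 1 probe set.

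Other regulators and caspases stayed within 2-fold. PEA15, a death effector domain protein that binds FADD and caspase-8, had 1255 with vorinostat and 745 untreated (1.68-fold higher), and its other probe set had a log2 ratio of 0.97. CASP6, an executioner, was 1.41-fold lower. The inflammatory caspases CASP4 and CASP1 were 1.58-fold and 1.54-fold lower. TNFRSF10D, a decoy receptor for TRAIL, was at the floor on the untreated array and had 71.8 with vorinostat, and PARP1, a caspase substrate, had 2028 with vorinostat and 2048 untreated.

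**Figure D4:**
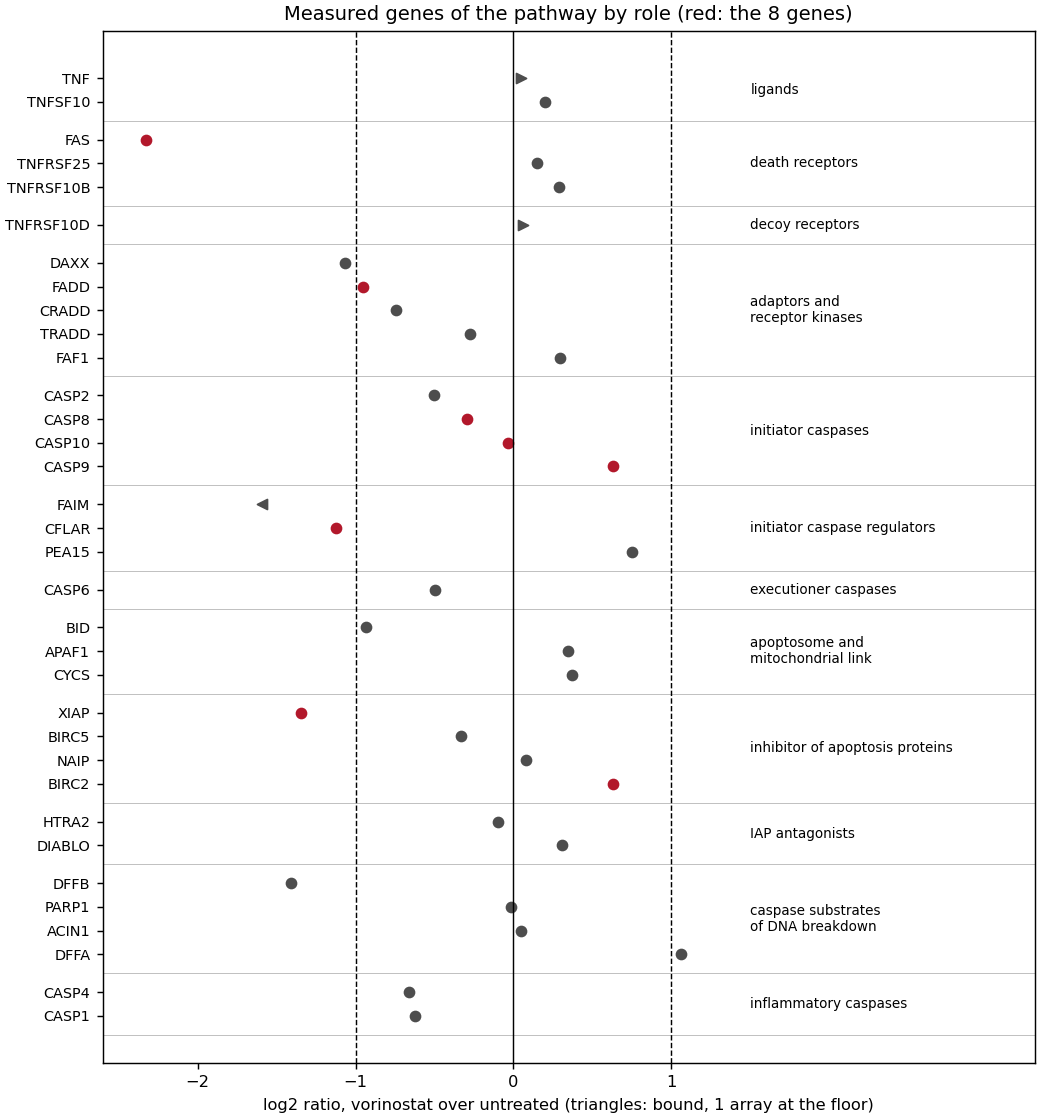
Log2 ratio (vorinostat over untreated) of the 34 measured pathway genes by role, each on its brightest probe set, the 8 genes in red; dashed lines mark 2-fold and triangles are bounds with 1 array at the floor. FAS, XIAP, CFLAR, FAIM, DFFB and DAXX lie left of the lower line and DFFA right of the upper one.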

How the data were processed

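Total RNA of 1 vorinostat-treated and 1 untreated L-540 culture was labelled with biotin and hybridised to HG_U133A arrays, as the labels' protocols state. The authors deposited linear intensity values per probe set, and the submitters' processing notes name MAS5; its version, scaling target and detection calls are not given in the sources used here. Trimmed by 2% from either end, the mean signal was 500.2 on each array, and the deposited scaling was kept, and no depth applies to arrays, whose number limits the precision.

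Of 22283 probe sets, 68 controls were left out, and 19065 carried 1 gene symbol in the platform annotation. Signals under the 40th percentile of both arrays were raised to it, log2 ratios are vorinostat over untreated, and a gene (8277 measured) takes its brightest probe set by mean log2 signal. No test was run, with 1 array per group; at least 2-fold is a rule of size. The steps were tested on simulated data. Promoter windows came from RefSeq (GRCh38.p14). Python 3.11.15, pandas 2.3.3 and statsmodels 0.14.6 were used.

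The members, lists and steps were chosen with earlier results of these data known. Genes named are the 8, every listed pathway gene past 2-fold, the largest ratio of each role and the 3 nearest FAS in log2 ratio; TNFRSF10B, TNFRSF25, CRADD, TRADD, FAF1, APAF1, CYCS, CASP2, BIRC5, NAIP, HTRA2, PEA15, CASP1 and PARP1 and the genes under the floor were added after their values were seen. The alternatives were 3 scalings, 2 floors, an offset of 16, the median over probe sets, leaving out shared-sequence probe sets, and 1.5-fold and 3-fold rules.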

Additional observations from a re-analysis of the deposited data

How the results depend on the processing

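Under the 8 settings that change scaling, floor or choice of probe set, FAS kept a log2 ratio between -2.37 and -2.18 wherever it was measured, CFLAR between -1.65 and -0.99, FADD between -0.95 and -0.82, and BIRC2 between 0.58 and 0.76. XIAP ranged from -1.35 to -0.63, and neither it nor CASP10 was measured with the floor at the 60th percentile. The -0.63 came without shared-sequence probe sets and is a bound, with the vorinostat array at the floor. CASP10 ranged from -0.04 to 0.14 and changed sign under all 3 other scalings. Scaling to equal medians moved the median of all genes by 0.12, and the share of higher genes among those past 2-fold was 58.8% there against 42.4% as deposited; relative to the median of all genes CFLAR was then at -1.08 and FAS at -2.28. With that scaling 2 of the 8 genes and 4 of the pathway list were at least 2-fold lower. Of the 8 genes, 1 was at least 2-fold lower without shared-sequence probe sets, which leave 5 measured and FAS, CASP8 and CASP9 unmeasured. At 3-fold 1 of the 8 was lower and 0 higher, and at 1.5-fold 4 were lower and 2 higher. In the pathway list 3 genes were at least 2-fold lower with the floor at the 60th percentile, where 27 were measured, and 1 without shared-sequence probe sets, where 18 were. At 1.5-fold 11 were lower and 4 higher, and at 3-fold 2 were lower and 0 higher. The counts of all genes at least 2-fold lower were 689 and 251 with floors at the 25th and 60th percentiles and 250 without shared-sequence probe sets, against 424. At 1.5-fold 1283 genes were lower and 1051 higher, and at 3-fold 77 and 45. No paired analysis was possible because each group holds 1 array.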

Other observations

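The next protein-coding gene beside a member had nearly the same log2 ratio in 3 cases, on 1 side, noticed after the values were seen. Every other measured gene next to a member differed more from it on the brightest probe sets, CASP10 beside CFLAR and CASP8 included. The share of all adjacent pairs that lie as close as these 3 was not counted, so nothing is read from their number. STAG2, a cohesin subunit gene beside XIAP on chromosome X, had 1164 with vorinostat and 3023 untreated, and its 3 probe sets had log2 ratios between -1.71 and -1.38, against -1.35 for XIAP on its brightest probe set and -0.99 for the median of its probe sets. THOC2, on the other side of XIAP, had -0.08. TMEM123, 1 place from BIRC2 on chromosome 11, had 0.67 against 0.63 for BIRC2, each on 1 probe set. BIRC3, on the other side of BIRC2, was not measured here. DNAJC16, beside CASP9 on chromosome 1, had 0.66 against 0.63 for CASP9, but its 3 probe sets ranged from 0.09 to 1.38. CELA2B, on the other side, had 56.6 with vorinostat, under the floor, and 69.7 untreated, so its -0.02 is only a bound. Beside FAS on chromosome 10, ACTA2, a smooth muscle actin gene, had 307 with vorinostat and 428 untreated, a log2 ratio of -0.48 against -2.33 for FAS. Beside CFLAR, NDUFB3, a gene of the respiratory chain, had 7264 with vorinostat and 5188 untreated, 0.49 against -1.12 for CFLAR, and beside FADD the gene PPFIA1 had 0.37 against -0.95 for FADD. Over all 3768 pairs of adjacent protein-coding genes that were both measured, the Pearson correlation of the log2 ratios was 0.05 and Spearman's rho 0.06, across gene pairs that share the 2 arrays and are not independent. The ratios of a pair differed by a median of 0.50, and 53.5% of pairs lay on the same side of 0.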
